A study of Mus musculus with 12 samples.

Results

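The 9 genes described here are homeobox transcription factors that mark regions of the developing brain: Emx1, Emx2, Lhx2, Pax6, Otx1, Otx2, Six3, Nkx2-1 and En1. They were taken by symbol from the deposited expression table, in which all 9 were found among 55421 entries with a gene name. The RNA sequencing covered 12 libraries in 4 groups of 3, all labelled as brain of C57BL/6 mice. The title of the series names retinal transcriptomes instead, and the sample labels and design text were followed here. Mouse astrocytes at 0 days of incubation (AST) were the negative control, and A-iSCs were the cells obtained from them after 5 days of incubation as 3D cell spheres. Brain-derived neural precursors labelled P56-NSC and P0-NSC were the positive controls. Nothing in the labels ties the 3 libraries of a group to separate animals or culture dishes, or says whether animals were pooled or how cells were isolated. The p-values therefore measure the spread between libraries, which may be technical.

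Homeobox genes encode proteins that bind DNA through a homeodomain, and in the early neural tube each is switched on in a limited territory along the front-to-back and top-to-bottom axes. Emx1, Emx2, Lhx2 and Pax6 are known for their part in the dorsal telencephalon, which forms the cortex and hippocampus. Otx1, Otx2 and Six3 mark the forebrain and its front end, Nkx2-1 the ventral forebrain and hypothalamus, and En1 the border of midbrain and hindbrain. Cells cultured from a brain region often keep part of that region's set.

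To show what stretch of DNA lies in front of these genes, the 250 bases before the annotated start are given for 4 members that behaved differently across the groups: Lhx2, the most abundant; Pax6, the least variable; and Otx2 and Six3, which differed between the positive and negative controls in opposite directions. The sequences are from RefSeq on GRCm38.p6, 5′ to 3′ on the strand of the gene, and capitals mark TAAT on either strand, the short core that many homeodomains recognise. RefSeq entries were found for 8 of the 9 members, with 13 windows, and the 4 shown overlap no annotated UTR. Where a gene had several starts the first window free of UTR was taken, and the starts used for Otx2 and Six3 lie inside the deposited gene spans.
Lhx2, chr2:38339031-38339280, plus strand: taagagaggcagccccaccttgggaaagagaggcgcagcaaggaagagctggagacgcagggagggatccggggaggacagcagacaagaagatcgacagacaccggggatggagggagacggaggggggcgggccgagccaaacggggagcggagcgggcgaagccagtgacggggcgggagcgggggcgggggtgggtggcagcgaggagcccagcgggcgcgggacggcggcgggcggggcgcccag
Pax6, chr2:105668646-105668895, plus strand: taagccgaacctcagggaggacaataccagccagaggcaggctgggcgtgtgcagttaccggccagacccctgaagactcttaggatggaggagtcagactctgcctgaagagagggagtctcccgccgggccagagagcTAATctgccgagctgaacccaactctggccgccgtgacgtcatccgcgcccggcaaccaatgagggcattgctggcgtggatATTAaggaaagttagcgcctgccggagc
Otx2, chr14:48667645-48667894, minus strand: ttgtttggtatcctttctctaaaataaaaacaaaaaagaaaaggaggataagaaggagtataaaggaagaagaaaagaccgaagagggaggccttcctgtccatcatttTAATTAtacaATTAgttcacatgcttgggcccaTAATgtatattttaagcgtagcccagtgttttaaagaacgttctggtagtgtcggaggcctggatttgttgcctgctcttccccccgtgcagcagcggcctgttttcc
Six3, chr17:85620584-85620833, plus strand: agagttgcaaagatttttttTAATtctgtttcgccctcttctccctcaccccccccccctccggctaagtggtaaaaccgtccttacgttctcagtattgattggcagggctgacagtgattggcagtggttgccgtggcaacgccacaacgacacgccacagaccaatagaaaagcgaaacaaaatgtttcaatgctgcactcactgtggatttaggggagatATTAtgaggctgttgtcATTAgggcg
The Lhx2 window held 25 CG dinucleotides and no TAAT. The Pax6 window held 15 CG dinucleotides and 2 matches to TAAT. The Otx2 window held 6 CG dinucleotides and 4 matches, of which 2 overlap in a single TAATTA. The Six3 window held 10 CG dinucleotides and 3 matches. Over 32851 such windows of all genes the median was 6 CG dinucleotides, 54.9% held TAAT on either strand and 4.8% held TAATTA, so TAAT itself is common and a match is only a description of the letters.

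Depth and the marker genes of each group bear on what follows. Values were deposited in FPKM, read counts scaled by gene length and library size, and whole reads could be recovered from them, with 17077780 to 24452419 reads a library. AST replicate 2 and A-iSCs replicate 3 stood apart within their groups, and each member's result of A-iSCs against AST below was also computed without both. Results for the other named genes and for the gene lists rest on all libraries. The groups differed in other cell types. Summed over 10 genes, astrocyte markers ran from 150 to 170.0 FPKM in AST and 1225 to 2480 in A-iSCs. They ran from 3030 to 3288 in the P56-NSC libraries and 249 to 316 in those of P0-NSC. The library group labelled as astrocytes thus had the lowest sum, with no marker at 0 in all its libraries. Single markers were mixed in P0-NSC, where 5 of 10 were higher and 4 lower than in AST. In A-iSCs 9 were higher and 0 lower than in AST, and in P56-NSC 10 were higher. Fibroblast and mural markers, summed over 8 genes, ran from 1881 to 2267 FPKM in AST and from 16.4 to 135 in the other groups. Single markers did not all follow this sum. Of 7 tested, 4 were higher and 2 lower in P0-NSC than in AST. In P56-NSC 3 were higher and 4 lower than in AST, and in A-iSCs 0 were higher and 4 lower. Against AST, 10 of 10 neuron markers were higher in both P56-NSC and P0-NSC, and 10 of 10 oligodendrocyte markers were higher in P56-NSC, where their sum reached 11006 to 12507 FPKM against 47.0 to 50.6 in AST. Neural stem and progenitor markers were lower in P56-NSC than in AST in 7 of 10 cases and higher in 3. The part of these other cell types in the results below was not tested, and in such bulk RNA fewer cells of a type and less RNA per cell cannot be told apart.

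Emx1 and Emx2 had the same order of groups, lowest in AST, then A-iSCs, then P56-NSC, and highest in P0-NSC. Emx1 (ENSMUSG00000033726, chr6:85187438-85204462, plus strand), a factor of cortical progenitors, was at 0.191, 0.294 and 0.247 FPKM in the 3 AST libraries. It was at 1.70, 1.73 and 1.02 FPKM in A-iSCs, at 2.14, 1.80 and 2.95 in P56-NSC and at 36.3, 28.3 and 34.7 in the P0-NSC libraries. No library of one group overlapped another group, and P0-NSC was far above the other groups. The group means were 0.244 ± 0.0512 FPKM in AST, from 30 reads in all, and 33.1 ± 4.21 in P0-NSC (SD, n = 3 each), a ratio of 136. On the scale of log2(FPKM + 1), which is used for every difference below and understates the change of genes near 0, Emx1 was higher in A-iSCs than in AST by 0.99 (SE 0.15; limma adjusted p = 0.000157) and in P0-NSC than in AST by 4.77 (SE 0.15; limma adjusted p = 1.27e-10). The difference between A-iSCs and P56-NSC was -0.40 (95% interval -0.74 to -0.07; limma adjusted p = 0.0367), and in 10 of 15 alternatives it was not called at 0.05, such as without A-iSCs replicate 3 (limma adjusted p = 0.125), P56-NSC replicate 1 (0.0617) or P56-NSC replicate 3 (0.161).

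Emx2 (ENSMUSG00000043969, chr19:59458372-59465357, plus strand), which acts in the growth and arealisation of the cortex, spread over a narrower range. Its levels were 4.83, 5.41 and 4.95 FPKM in AST, 7.77, 8.52 and 6.08 in A-iSCs, 13.7, 12.1 and 14.3 in P56-NSC and 25.5, 22.5 and 31.5 in the P0-NSC libraries. Again no group overlapped another. The mean was 1.47 times higher in A-iSCs than in AST, a log2 difference of 0.47 (SE 0.14; limma adjusted p = 0.0105). Within AST replicates 1 and 3 and A-iSCs replicate 3, the libraries whose deviations leaned towards long genes, that difference was 0.27 and was not called (limma adjusted p = 0.225), the lone A-iSCs library being assumed to vary like the other groups. Emx2 was 2.64 times higher in P56-NSC (limma adjusted p = 4.23e-06) and 5.24 times higher in P0-NSC (limma adjusted p = 3.08e-08) than in AST. A-iSCs were below P56-NSC (log2 difference -0.77, SE 0.14; limma adjusted p = 0.00035).

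Lhx2 (ENSMUSG00000000247, chr2:38339281-38369733, plus strand), a LIM-homeodomain factor needed for the cortex, hippocampus and eye, was the most abundant member in all 12 libraries. It stood at 31.8, 34.5 and 32.1 FPKM in AST and at 15.3, 13.4 and 16.3 in A-iSCs. In P56-NSC it was at 36.3, 34.0 and 39.0 FPKM and in P0-NSC at 88.8, 83.7 and 103. A-iSCs were the lowest group and P0-NSC the highest, neither overlapping the others, while AST and P56-NSC overlapped. The mean fell 2.19-fold from AST to A-iSCs, a log2 difference of -1.08 (SE 0.10; limma adjusted p = 2.71e-06), opposite to the rise of Emx1 and Emx2. P0-NSC exceeded AST by 1.45 (SE 0.10; limma adjusted p = 9.12e-08). P56-NSC and AST differed by 0.15 (95% interval -0.08 to 0.37; limma adjusted p = 0.217), a difference that was called under quantile normalization only, at 0.31 (limma adjusted p = 0.00682). Lhx2 made up 51.3% to 51.6% of the summed FPKM of the 9 members in AST, 32.5% to 42.1% in A-iSCs, 51.1% to 52.5% in P56-NSC and 50.3% to 55.5% in P0-NSC.

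Pax6 (ENSMUSG00000027168, chr2:105668900-105697364, plus strand), the paired-box factor of radial glia and the eye, varied least: its highest library was 1.86 times its lowest. The levels were 3.56, 3.48 and 3.73 FPKM in AST, 4.06, 3.64 and 4.70 in A-iSCs, 2.60, 2.90 and 2.77 in P56-NSC and 4.84, 4.28 and 4.81 in the P0-NSC libraries. P56-NSC lay below all other libraries, and A-iSCs overlapped both AST and P0-NSC. The difference between A-iSCs and AST was 0.16 (95% interval -0.05 to 0.36; limma adjusted p = 0.168), and that between A-iSCs and P0-NSC was -0.14 (95% interval -0.34 to 0.06; limma adjusted p = 0.196). Without A-iSCs replicate 3 the latter was -0.22 and was called (limma adjusted p = 0.0328). P56-NSC was lower than AST (log2 difference -0.29, SE 0.09; limma adjusted p = 0.0133) and lower than A-iSCs, which exceeded it by 0.45 (SE 0.09; limma adjusted p = 0.00115). P0-NSC was higher than AST by 0.30 (SE 0.09; limma adjusted p = 0.0116). Without P56-NSC replicate 1 the difference between P56-NSC and AST was no longer called (limma adjusted p = 0.0549), and under quantile normalization that between P0-NSC and AST was not (limma adjusted p = 0.0554).

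**Figure D1:**
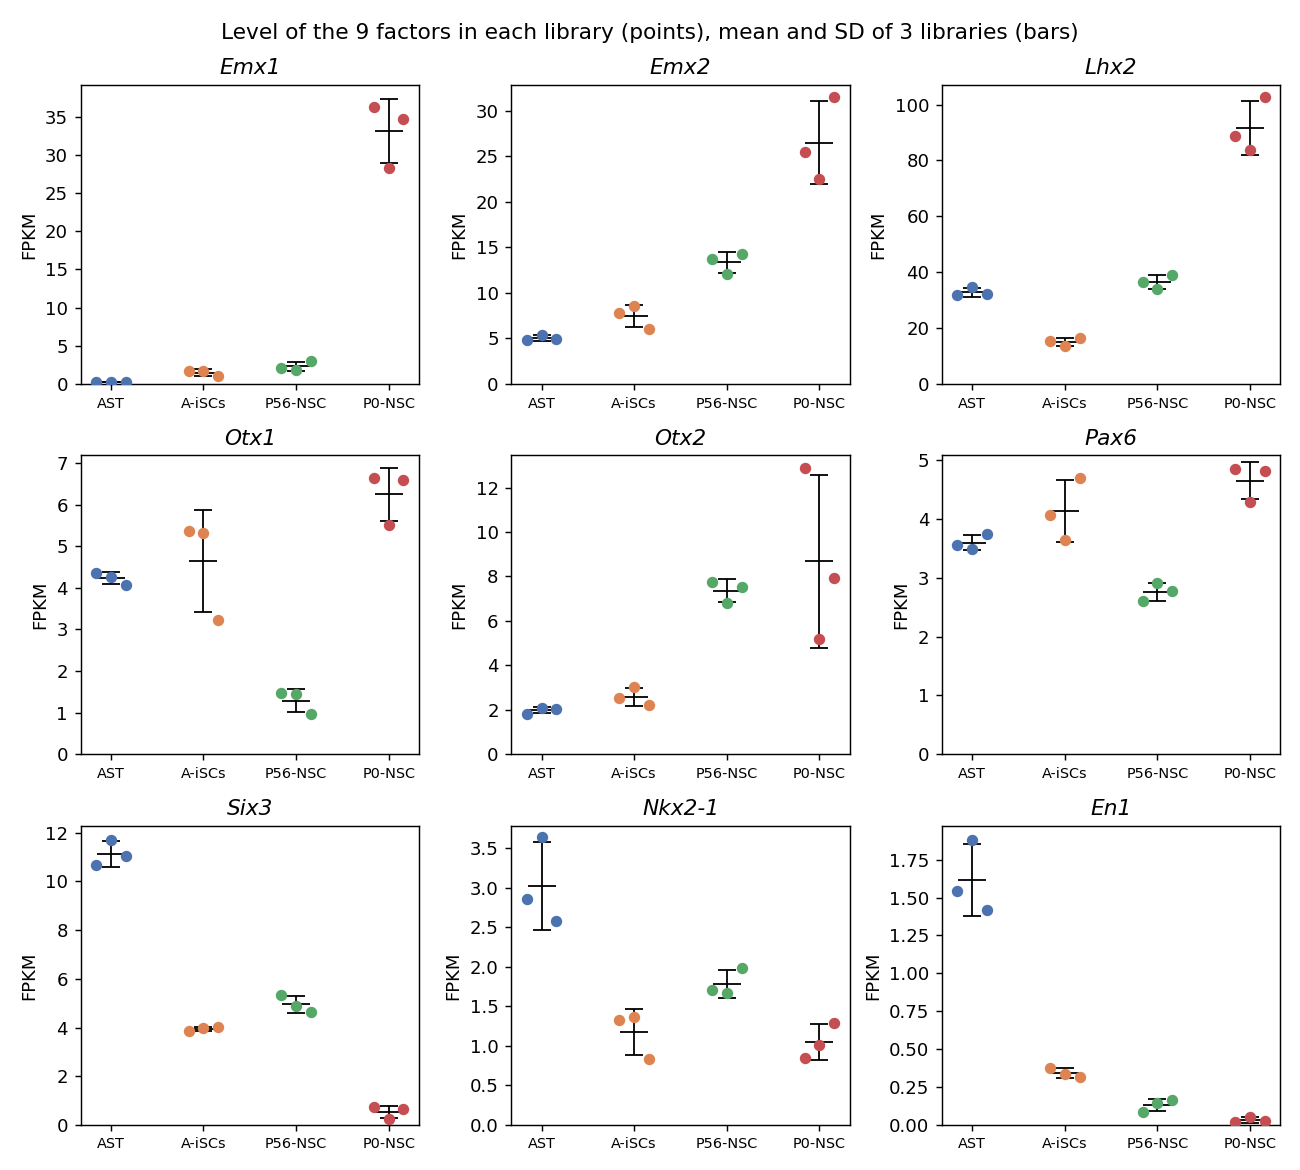
Level of each of the 9 factors in FPKM (vertical axis, linear, from 0) in each library (points) of the 4 groups, with the mean and SD of 3 libraries (bars). Emx1, Emx2 and Lhx2 are highest in P0-NSC, Six3, Nkx2-1 and En1 are highest in AST, and Otx1 and Pax6 are lowest in P56-NSC.

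The orthodenticle factors Otx1 and Otx2, which specify forebrain and midbrain, did not move together. Otx1 (ENSMUSG00000005917, chr11:21994764-22002897, minus strand) was at 4.36, 4.27 and 4.07 FPKM in AST and at 5.37, 5.33 and 3.22 in A-iSCs. It was at 1.47, 1.45 and 0.963 FPKM in P56-NSC and at 6.63, 5.51 and 6.59 in the P0-NSC libraries. P56-NSC was the lowest group and P0-NSC the highest, without overlap, and A-iSCs lay on both sides of AST. Otx1 was 3.27 times lower in P56-NSC than in AST (log2 difference -1.20, SE 0.16; limma adjusted p = 1.96e-05). The difference between A-iSCs and AST was 0.08 (95% interval -0.26 to 0.42; limma adjusted p = 0.675). Without A-iSCs replicate 3 it was 0.28 (limma adjusted p = 0.0494). Over all alternatives it ran from -0.305 to 0.285, so its direction depended on the setting. P0-NSC exceeded AST by 0.47 (SE 0.16; limma adjusted p = 0.017) and A-iSCs were lower than P0-NSC (log2 difference -0.38, SE 0.16; limma adjusted p = 0.0461). Neither call was stable: the first was lost without P0-NSC replicate 1 (limma adjusted p = 0.0556) or replicate 3 (0.0536), and the second in 9 of 15 alternatives, such as without A-iSCs replicate 3 (-0.19; limma adjusted p = 0.16) or either of these P0-NSC libraries (limma adjusted p = 0.123 and 0.119).

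Otx2 (ENSMUSG00000021848, chr14:48657677-48673819, minus strand), whose upstream window with TAATTA is printed above, separated the 4 groups into a low and a high pair. Its levels were 1.82, 2.08 and 2.04 FPKM in AST and 2.55, 3.01 and 2.21 in A-iSCs. They were 7.77, 6.79 and 7.54 FPKM in P56-NSC and 12.9, 5.19 and 7.94 in the P0-NSC libraries. Every P56-NSC and P0-NSC library lay above every AST and A-iSCs library. The mean was 3.72 times higher in P56-NSC than in AST (log2 difference 1.49, SE 0.22; limma adjusted p = 6.09e-05) and 4.38 times higher in P0-NSC (1.62, SE 0.22; limma adjusted p = 3.05e-05). A-iSCs were above AST by 0.26 (95% interval -0.22 to 0.75; limma adjusted p = 0.331) and below P56-NSC (log2 difference -1.22, SE 0.22; limma adjusted p = 0.000417). P0-NSC and P56-NSC differed by 0.13 (95% interval -0.35 to 0.62; limma adjusted p = 0.611).

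Otx2 is also expressed by the choroid plexus, the tissue that secretes cerebrospinal fluid, and the markers of that tissue moved with it. Summed over 10 genes, choroid plexus markers were at 6.23, 5.38 and 5.89 FPKM in AST and at 3.37, 4.60 and 6.22 in A-iSCs. In P56-NSC they were at 2137, 1502 and 3196 FPKM, and in P0-NSC at 3828, 745 and 2312. Within P0-NSC both Otx2 and this sum were highest in replicate 1 and lowest in replicate 2. Within P56-NSC the order differed, since the sum was highest in replicate 3 and Otx2 in replicate 1. Of the 8 listed markers tested, 8 were higher in P56-NSC than in AST, where 37.1% of all genes were. In P0-NSC 7 were higher, beside 35.9% of all genes, and in A-iSCs 1, beside 28.1%. A marker that reached 1 FPKM only in P56-NSC or P0-NSC entered the test through them and had to differ, so these counts are descriptions. Ttr, the transthyretin gene that dominates choroid plexus RNA, was at 2.58 ± 0.324 FPKM in AST, 0.925 ± 0.569 in A-iSCs, 2216 ± 843 in P56-NSC and 2246 ± 1511 in P0-NSC (SD, n = 3 each). The part of choroid plexus cells in the Otx2 level was not tested.

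**Figure D2:**
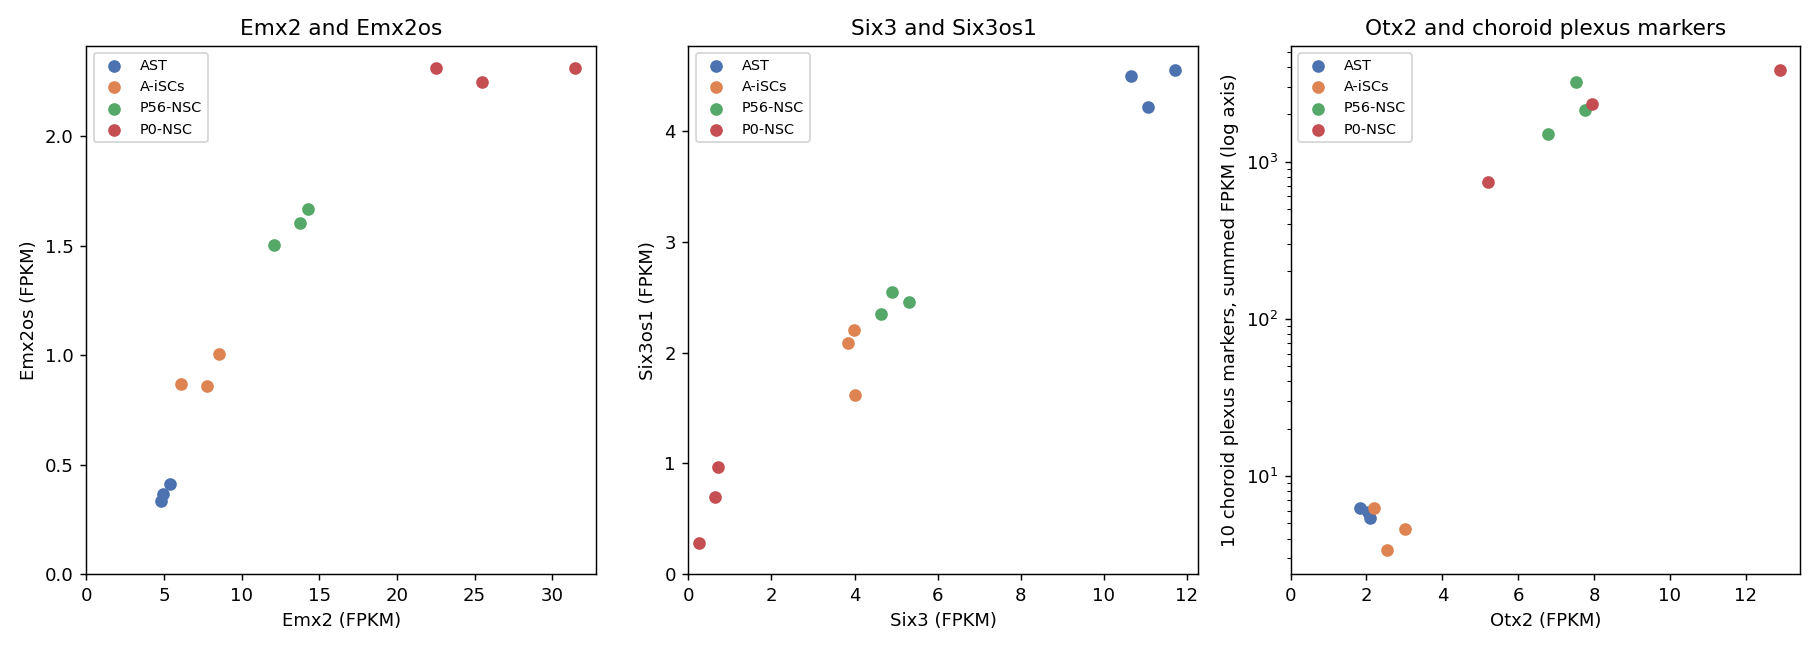
Each point is a library: Emx2 against Emx2os and Six3 against Six3os1 (both axes in FPKM, linear), and Otx2 in FPKM against the summed FPKM of 10 choroid plexus markers (log axis). The P56-NSC and P0-NSC libraries lie at 745 to 3828 FPKM of choroid plexus markers and the AST and A-iSCs libraries at 3.37 to 6.23.

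Six3 (ENSMUSG00000038805, chr17:85613608-85629302, plus strand), a factor of the front end of the neural plate and the eye, had AST as its highest group and P0-NSC as its lowest, the reverse of Emx1 and Emx2. It was at 10.7, 11.7 and 11.1 FPKM in AST and at 3.85, 3.98 and 4.02 in A-iSCs. It was at 5.32, 4.90 and 4.64 FPKM in P56-NSC and at 0.714, 0.246 and 0.647 in the P0-NSC libraries, where 225 reads were counted in all. The 4 groups did not overlap. The mean was 2.82 times lower in A-iSCs than in AST (log2 difference -1.29, SE 0.11; limma adjusted p = 1.52e-06) and 20.8 times lower in P0-NSC (-2.996, SE 0.11; limma adjusted p = 4.94e-10). A-iSCs and P56-NSC differed by -0.26 (95% interval -0.52 to -0.01; limma adjusted p = 0.063), a difference called only with those 2 groups alone in the fit (limma adjusted p = 0.043). A-iSCs exceeded P0-NSC by 1.70 (SE 0.11; limma adjusted p = 8.07e-08). Lhx2 over Six3 was a ratio of 2.90 to 2.98 in AST, 3.38 to 4.05 in A-iSCs, 6.83 to 8.40 in P56-NSC and 124 to 340.2 in P0-NSC.

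Nkx2-1 (ENSMUSG00000001496, chr12:56531958-56536908, minus strand), which specifies the medial ganglionic eminence and hypothalamus, was low throughout. Its levels were 2.85, 3.64 and 2.58 FPKM in AST, 1.33, 1.36 and 0.840 in A-iSCs, 1.70, 1.67 and 1.99 in P56-NSC and 0.846, 1.01 and 1.29 in the P0-NSC libraries. AST was highest and P56-NSC next, each without overlap, and A-iSCs and P0-NSC overlapped. Nkx2-1 was 2.57 times lower in A-iSCs than in AST (log2 difference -0.89, SE 0.13; limma adjusted p = 0.000114), and lower in P56-NSC (-0.52, SE 0.13; limma adjusted p = 0.00336) and P0-NSC (-0.97, SE 0.13; limma adjusted p = 3.03e-05). A-iSCs and P0-NSC differed by 0.08 (95% interval -0.21 to 0.37; limma adjusted p = 0.601). The differences from P56-NSC, -0.36 in A-iSCs (limma adjusted p = 0.0303) and -0.45 in P0-NSC (limma adjusted p = 0.00982), were not called when libraries were scaled by total reads (-0.03 and -0.08). The former was not called either without A-iSCs replicate 3 (limma adjusted p = 0.103), P56-NSC replicate 1 (0.0548) or P56-NSC replicate 3 (0.0987).

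En1 (ENSMUSG00000058665, chr1:120602418-120607992, plus strand), the engrailed factor of the midbrain and hindbrain border, was the only member that reached 1 FPKM in AST alone. It therefore entered the test through the group in which it was high and had to differ. AST libraries were at 1.55, 1.88 and 1.42 FPKM, and A-iSCs at 0.378, 0.337 and 0.313. P56-NSC was at 0.0878, 0.142 and 0.162 FPKM from 4, 6 and 7 reads, and P0-NSC at 0.0167, 0.0524 and 0.0277 from 1, 4 and 2 reads. No group overlapped another. A-iSCs were 4.71 times lower than AST (log2 difference -0.96, SE 0.08; limma adjusted p = 9.25e-07) and 2.62 times higher than P56-NSC (0.25, SE 0.08; limma adjusted p = 0.0175), the latter not called without A-iSCs replicate 1 (limma adjusted p = 0.0564) or P56-NSC replicate 1 (0.0606). P0-NSC and P56-NSC differed by -0.13 (95% interval -0.31 to 0.04; limma adjusted p = 0.165), and the difference was called with a pseudocount of 0.1 (limma adjusted p = 0.00679) and by voom on the recovered reads (limma adjusted p = 0.00539).

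From AST to A-iSCs Emx1 and Emx2 rose, while Lhx2, Six3, Nkx2-1 and En1 fell. Otx1, Otx2 and Pax6 were not called. The members known from the dorsal telencephalon thus went different ways: Emx1 and Emx2 rose, Lhx2 fell and Pax6 was not called. Of the 9 members 2 were higher, where 28.1% of the 15747 genes tested were, and 4 were lower, where 30.8% were. A share of that size was common among all genes, so the count does not set the members apart. Without AST replicate 2 and A-iSCs replicate 3, each of the 9 calls or non-calls stayed on its side of the threshold. Scaling by total reads moved the median of all genes by 0.12 on the log2 scale and the higher calls' share of all calls from 47.7% to 61.0%. Under it Pax6 was called higher (0.33; limma adjusted p = 0.0101).

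Against the same AST libraries, P56-NSC showed 3 members higher (Emx1, Emx2 and Otx2) where 37.1% of all genes were, and 5 lower (Otx1, Pax6, Six3, Nkx2-1 and En1) where 37.0% were. P0-NSC showed 6 higher (Emx1, Emx2, Lhx2, Otx1, Otx2 and Pax6) where 35.9% of all genes were, and 3 lower (Six3, Nkx2-1 and En1) where 38.3% were. These comparisons share the AST libraries with that of A-iSCs, so their values are given side by side only. Emx1 differed from AST by 0.99 in A-iSCs, 1.39 in P56-NSC and 4.77 in P0-NSC. Lhx2 differed by -1.08, 0.15 and 1.45, Otx1 by 0.08, -1.20 and 0.47, and Six3 by -1.29, -1.03 and -2.996. Scaling by total reads moved the median of all genes from -0.004 to -0.24 in P56-NSC and from -0.04 to 0.16 in P0-NSC. The higher calls' share of all calls went from 50.1% to 38.7% in P56-NSC and from 48.4% to 58.8% in P0-NSC. No call of a member against AST was lost under this scaling.

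A-iSCs set directly against the positive controls were lower than both for Emx1, Emx2, Lhx2 and Otx2. Against P56-NSC, 3 members were higher (Otx1, Pax6 and En1) where 31.5% of all genes were, and 5 lower (Emx1, Emx2, Lhx2, Otx2 and Nkx2-1) where 31.3% were. Lhx2 differed by -1.23 (SE 0.10; limma adjusted p = 5.95e-07) and Otx1 by 1.28 (SE 0.16; limma adjusted p = 1.69e-05). Scaling by total reads left 5 of these 8 calls, with Emx1, Emx2 and Nkx2-1 lost. It moved the median of all genes from 0.03 to 0.44 and the higher calls' share of all calls from 50.1% to 73.4%. Mitochondrial genes took 16.5% to 17.6% of reads in P56-NSC and 2.94% to 7.03% in the other libraries, and their part in this shift was not tested. Without P56-NSC replicate 1 also 5 calls were left.

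Against P0-NSC, A-iSCs had 2 members higher (Six3 and En1) where 32.6% of all genes were, and 5 lower (Emx1, Emx2, Lhx2, Otx1 and Otx2) where 34.7% were. The mean of Emx1 was 22.2 times lower in A-iSCs (log2 difference -3.78, SE 0.15; limma adjusted p = 1.08e-09), and that of Lhx2 6.12 times lower (-2.53, SE 0.10; limma adjusted p = 1.1e-09). The 2 positive controls also differed from each other. P0-NSC had 5 members higher than P56-NSC (Emx1, Emx2, Lhx2, Otx1 and Pax6) where 33.9% of all genes were, and 2 lower (Six3 and Nkx2-1) where 35.3% were. Emx1 exceeded P56-NSC by 3.38 (SE 0.15; limma adjusted p = 2.92e-09), Otx1 by 1.66 (SE 0.16; limma adjusted p = 1.48e-06), and Six3 was lower (log2 difference -1.97, SE 0.11; limma adjusted p = 2.5e-08). When libraries were scaled by total reads, the median of all genes moved by 0.45, the higher calls' share of all calls went from 49.0% to 72.7%, Nkx2-1 was no longer called (limma adjusted p = 0.58) and Otx2 was called higher in P0-NSC (0.69; limma adjusted p = 0.0177).

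**Figure D3:**
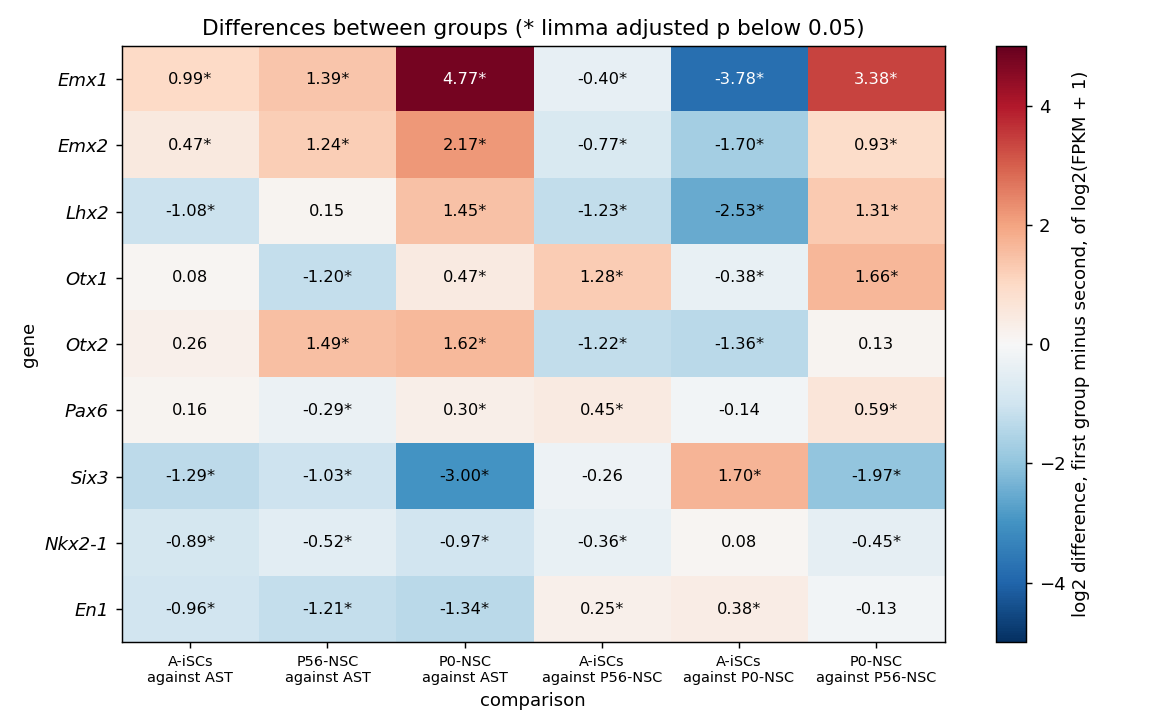
Differences in log2(FPKM + 1), first group minus second, for the 9 factors (rows) in the 6 comparisons (columns), coloured from -5 (blue) to 5 (red), with a star where limma's adjusted p was below 0.05. The largest values in each direction are those of Emx1, 4.77 in P0-NSC against AST and -3.78 in A-iSCs against P0-NSC.

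Within each paralog pair the balance shifted between groups. FPKM is scaled by the deposited gene length, and the levels of a pair are set side by side on that scale. Whether these lengths suit the transcripts present was not tested. The ratio of Emx1 to Emx2 was 0.0396 to 0.0543 in the AST libraries, 0.169 to 0.219 in A-iSCs, 0.149 to 0.206 in P56-NSC and 1.10 to 1.42 in P0-NSC. By FPKM Emx1 was thus the minor gene of the pair everywhere except in P0-NSC, and A-iSCs and P56-NSC overlapped. In P0-NSC Emx2 had more reads than Emx1, 6326 against 5700, so their order there rests on the lengths of 3002 and 2184 bases. The ratio of Otx2 to Otx1 was 0.418 to 0.501 in AST, 0.475 to 0.686 in A-iSCs, 4.69 to 7.83 in P56-NSC and 0.942 to 1.94 in P0-NSC. Otx1 was the more abundant of the pair in every AST and A-iSCs library and Otx2 in every P56-NSC library, while P0-NSC lay on both sides of equality. In AST the order of members by level was Lhx2, Six3, Emx2 and Otx1 in all 3 libraries, and in P0-NSC it began with Lhx2, Emx1 and Emx2, with Six3 second to last.

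**Figure D4:**
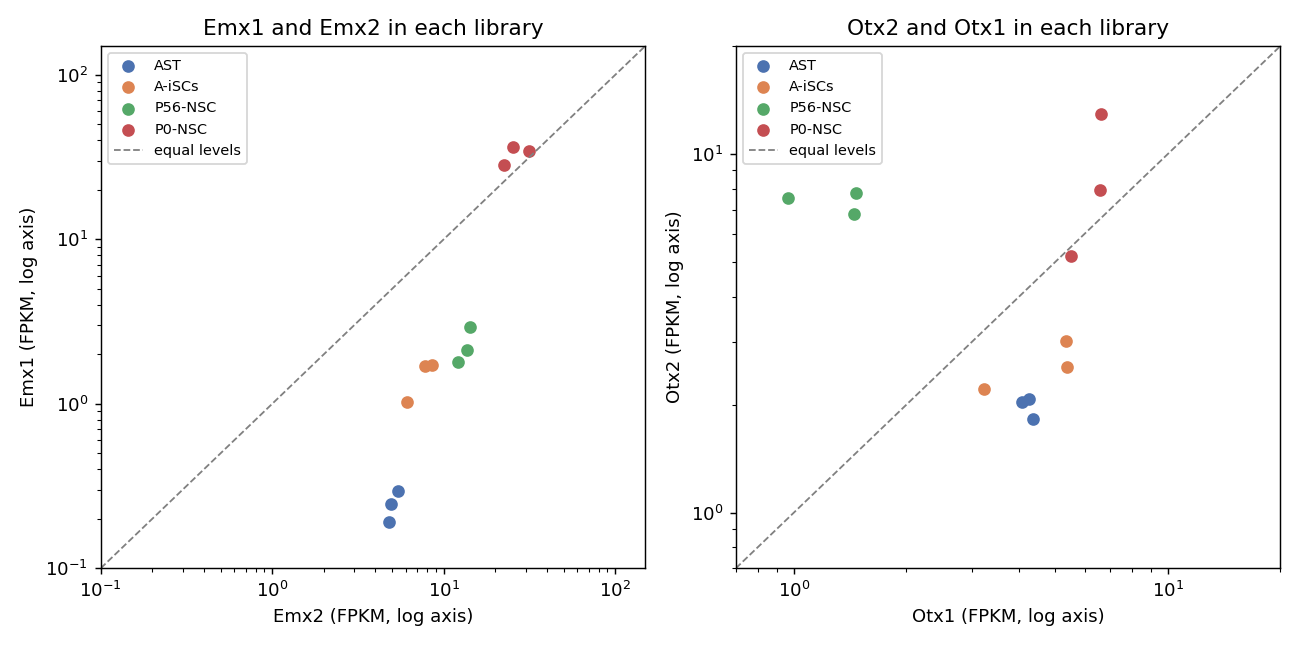
Levels of Emx1 against Emx2 and of Otx2 against Otx1 in each library (points), in FPKM on log axes, with the line of equal levels dashed. P0-NSC alone lies above the line for Emx1, and P56-NSC lies farthest above it for Otx2, at ratios of 4.69 to 7.83.

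Several members overlap a long noncoding gene on the other strand. The library kit as named does not mark strand, so reads of a pair cannot be told apart where they overlap. Emx2os overlaps Emx2 over 264 bases and Six3os1 overlaps Six3 over 4791 bases of gene span, introns included. Both were chosen here after their values were seen. Emx2os was at 0.370 ± 0.0402 FPKM in AST, 0.911 ± 0.0814 in A-iSCs, 1.59 ± 0.0845 in P56-NSC and 2.29 ± 0.0386 in P0-NSC (SD, n = 3 each), the same order as Emx2. It was higher in A-iSCs than in AST by 0.48 (SE 0.07; limma adjusted p = 0.000131). Six3os1 was at 4.42 ± 0.180 FPKM in AST, 1.97 ± 0.312 in A-iSCs, 2.45 ± 0.0991 in P56-NSC and 0.649 ± 0.348 in P0-NSC, the same order as Six3, and lower in A-iSCs than in AST (log2 difference -0.87, SE 0.14; limma adjusted p = 0.000201). Pax6os1 and Otx2os1 were too low to be tested, at group means of 0.197 to 0.772 and 0.0860 to 0.405 FPKM.

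Other genes of the same territories, taken from lists of regional factors, give the setting of the 9. A gene that reached 1 FPKM in a single group entered the test through it and had to differ, so these counts are descriptions, to be read beside the shares of all genes called in the same comparisons: 28.1% higher and 30.8% lower in A-iSCs than in AST, 37.1% and 37.0% for P56-NSC, and 35.9% and 38.3% for P0-NSC. Of 16 further dorsal telencephalic genes, all tested, 6 were higher and 2 lower in A-iSCs than in AST (median log2 difference 0.04, against 0.00 over all genes), 8 higher and 5 lower in P56-NSC (0.34 against 0.00), and 13 higher and 0 lower in P0-NSC (1.35 against -0.04). Fezf2, a factor of deep-layer cortical neurons and their progenitors, rose from 0.673 ± 0.129 FPKM in AST to 5.57 ± 1.17 in A-iSCs (limma adjusted p = 1.28e-07) and was at 17.9 ± 1.36 in P0-NSC. Tbr1 and Eomes, which mark new cortical neurons and intermediate progenitors, were at 0.0249 ± 0.0252 and 0.362 ± 0.110 FPKM in AST against 18.3 ± 2.59 and 14.1 ± 3.63 in P0-NSC (limma adjusted p = 1.29e-11 and 2.63e-09). Both had group means of 1 FPKM or more in P0-NSC alone, so they entered the test through that group and had to differ. Gli3, a repressor of ventral fate, fell from 5.00 ± 0.531 to 2.69 ± 0.556 FPKM between AST and A-iSCs (limma adjusted p = 0.000386).

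Of 15 ventral telencephalic genes 12 were tested, and 9 were higher and 0 lower in A-iSCs than in AST, with a median of 0.54 against 0.00 over all genes. The counts were similar in the positive controls: 8 were higher and 0 lower in P56-NSC than in AST (median 0.81), and 8 higher and 1 lower in P0-NSC (0.52). Nkx2-1 was not on that list. Dlx1, a factor of interneuron precursors, rose from 1.06 ± 0.0853 to 5.83 ± 1.35 FPKM (limma adjusted p = 3.49e-07) and Gsx1 from 0.0927 ± 0.0337 to 2.12 ± 0.636 (limma adjusted p = 1.26e-06). Gsx1 had a group mean of 1 FPKM or more in A-iSCs alone, so it entered the test through that group and had to differ. Lhx6, which acts downstream of Nkx2-1 in interneurons, was at 13.0 ± 1.48 FPKM in P0-NSC against 0.250 ± 0.0333 in AST (limma adjusted p = 1.23e-09), while Nkx2-1 itself was lower in P0-NSC. The group mean of Lhx6 was 1 FPKM or more in P0-NSC alone, so it too had to differ. Of 22 diencephalic, hypothalamic and eye genes 11 were tested, with 0 higher and 4 lower in A-iSCs than in AST (median -0.21), 1 higher and 5 lower in P56-NSC (-0.13), and 4 higher and 7 lower in P0-NSC (-1.22). Gbx2, Irx1, Irx2 and Irx5 were those lower in A-iSCs, with log2 differences of -0.93, -0.73, -0.77 and -0.63. Lhx9 was higher in P0-NSC than in AST by 2.27 (SE 0.10; limma adjusted p = 1.37e-09). Like Lhx6, it had a group mean of 1 FPKM or more in P0-NSC alone and had to differ.

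Of 14 midbrain and anterior hindbrain genes only 5 were tested, and 3 of them were lower in A-iSCs than in AST, with a list median of -0.60 against 0.00 over all genes. Of these, Pax2 and Foxa1 had group means of 1 FPKM or more in AST alone, at 1.24 and 1.09 FPKM. The log2 differences were -1.09 for Pax2, -0.82 for En2, the paralog of En1, and -0.60 for Foxa1. Sall3 was higher by 0.41 (limma adjusted p = 0.0066). En2 was at 2.70 ± 0.577 FPKM in AST, 1.08 ± 0.0972 in A-iSCs, 1.75 ± 0.357 in P56-NSC and 0.212 ± 0.0860 in P0-NSC, highest in AST as En1 was. Of 28 posterior hindbrain and spinal cord genes, mostly Hox genes, 1 reached the test, through the A-iSCs libraries in which it was high: Hoxa2 rose from 0.521 ± 0.125 to 1.68 ± 0.484 FPKM between AST and A-iSCs (limma adjusted p = 0.000123) and was listed at 0 in all P0-NSC libraries. Summed, the 28 were at 3.91 to 4.54 FPKM in AST, 3.30 to 4.49 in A-iSCs, 0.308 to 1.94 in P56-NSC and 0.0215 to 0.0794 in P0-NSC.

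**Figure D5:**
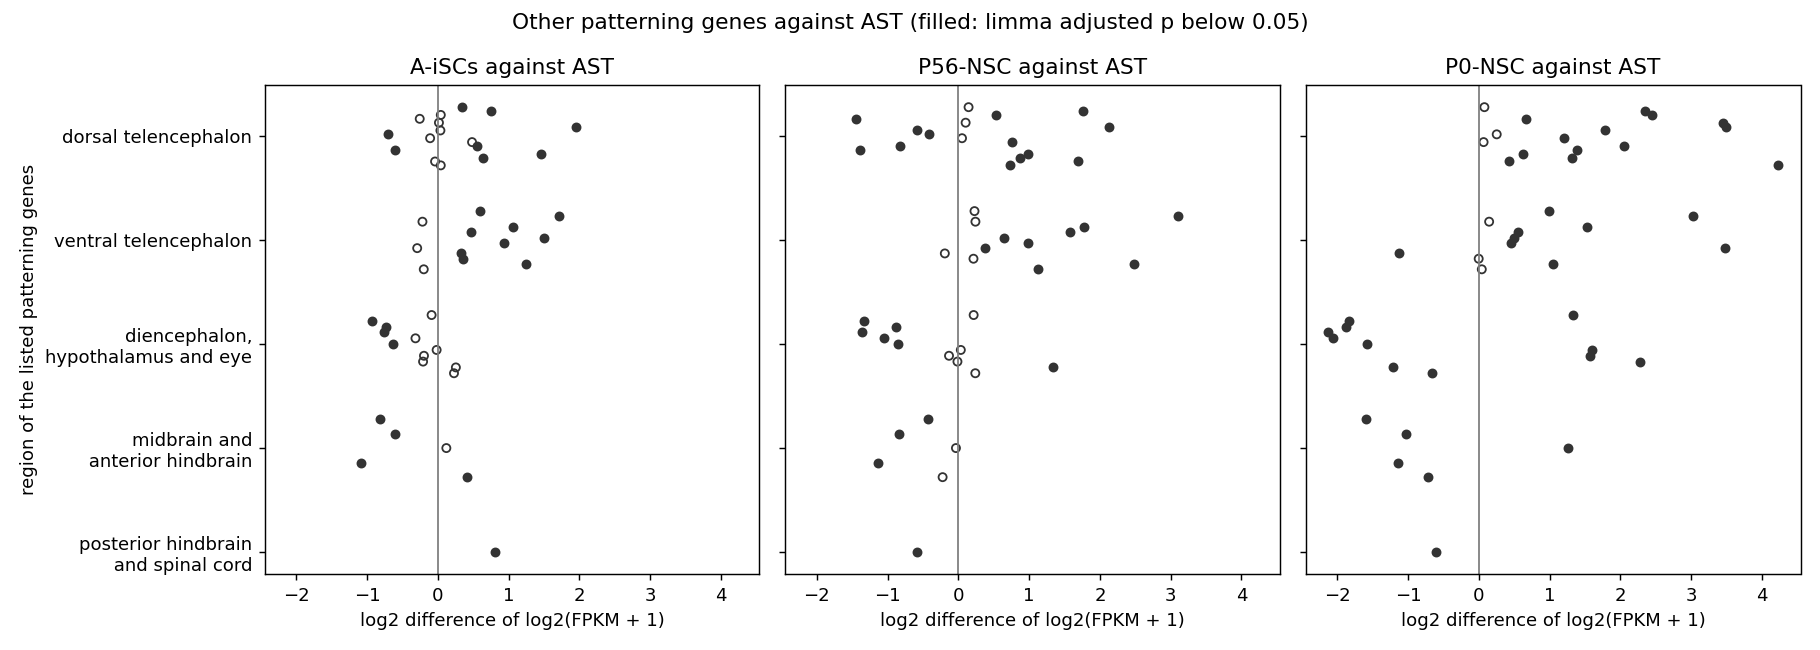
Differences from AST in log2(FPKM + 1) (horizontal axis) for the tested genes of 5 regional lists (rows) in A-iSCs, P56-NSC and P0-NSC (panels). Filled points passed limma's adjusted p of 0.05 and open points did not: 13 of 16 dorsal telencephalic genes lie filled to the right in P0-NSC, and 9 of 12 ventral ones in A-iSCs.

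Cofactors and partners of LIM and other homeodomain proteins were measured in all groups. Of 14 such genes, all tested, 10 were higher and 1 lower in A-iSCs than in AST, where 28.1% and 30.8% of all genes were, with a median difference of 0.66 against 0.00. In P56-NSC 9 were higher and 3 lower than in AST (median 0.37 against -0.004), beside 37.1% and 37.0% of all genes. In P0-NSC 9 were higher and 4 lower (1.14 against -0.04), beside 35.9% and 38.3%. Most of the 14 were thus above AST in each of the other groups. Lmo2 rose from 2.76 ± 0.642 to 19.8 ± 2.24 FPKM (limma adjusted p = 1.98e-08) and Lmo1 from 2.09 ± 0.143 to 7.12 ± 0.592 (limma adjusted p = 4.56e-08). Lmo4, a LIM-only protein that competes with LIM-homeodomain factors such as Lhx2 for Ldb proteins, fell from 78.2 ± 12.2 to 29.6 ± 3.69 FPKM (limma adjusted p = 1.67e-06), in the same direction as Lhx2. Lmo2 is also a gene of blood and endothelial lineages. In A-iSCs 8 of 8 microglia and macrophage markers were higher than in AST, their sum going from 165 to 210.0 FPKM to 2074 to 2559. Of 6 endothelial markers 0 were higher and 3 lower. In P0-NSC, where Lmo2 was at 10.45 ± 0.880 FPKM, 2 of the 8 microglia and macrophage markers were higher and 4 lower than in AST. Of the 6 endothelial markers 5 were higher there and 0 lower. The part of these cell types in the Lmo2 level was not tested.

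The genes whose profiles over the 12 libraries were most like those of the members, by Pearson's r of log2(FPKM + 1) among named genes with a group mean of at least 5 FPKM, are given as a description; the libraries of a group share their condition, so r mostly reflects 4 group levels. For Emx1 they were Bcl11a, Crmp1 and Igfbpl1 (r = 0.994, 0.993 and 0.993), with Igfbpl1 at a mean of 3.91 FPKM in AST and 262 in P0-NSC. For Lhx2 they were Bhlhe22, Nanos1 and Nyap1 (r = 0.983, 0.981 and 0.979), and Bhlhe22, a cortical basic helix-loop-helix factor, had means of 2.63, 0.178, 3.13 and 34.5 FPKM in AST, A-iSCs, P56-NSC and P0-NSC. For Otx2 they were Kcne2, Krt18 and Clic6 (r = 0.982, 0.968 and 0.967); Clic6 is on the choroid plexus list. For Six3 they were Tmx2, F3 and Pea15a (r = 0.994, 0.989 and 0.986), and for En1 Sap18, Ccnd3 and Znhit6 (r = 0.996, 0.994 and 0.994). Emx2 was followed by Cdkn1c, Hnrnpa3 and Smarcd1, Otx1 by Usb1, Csk and Xpo1, Pax6 by Prune1, Zfp655 and Rnf2, and Nkx2-1 by Prelid3b, Ociad1 and Kmt5a, with r from 0.952 to 0.995.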

How the data were processed

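Expression was deposited by the authors as FPKM per gene in a single table of 12 libraries made with a NEBNext Ultra kit. The aligner Bowtie 0.12.2 and 2 builds, mm8 and also mm9, are named, per the submitters' processing notes, but the table's coordinates match GENCODE M21 on GRCm38 for 99.54% of shared gene identifiers, so coordinates are given on GRCm38. The counting tool and the scaling between libraries are not given in the sources used here. FPKM times gene length was in whole steps (tolerance 0.01) for 100% of values in each library, which gave the reads; the depth implied by the FPKM scale was 0.744 to 1.22 times these reads. Of 55862 entries, 441 without a gene name (0.0957% to 0.156% of reads) were left out.

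Genes that reached 1 FPKM in 3 libraries or more (15747) were tested with limma 3.58.1 (R 4.3.3) on log2(FPKM + 1), all libraries in 1 fit with a mean per group and a trended variance, adjusted by Benjamini-Hochberg over all of them and called at an adjusted p below 0.05. The procedure was tested on simulated reads with the same spread for all genes and no drift with gene length. The libraries here differ in both, so that test gives no error rate for them. Differences are given with their standard error (SE) or 95% interval. The text names the 9 members, at most 4 called genes of largest difference per regional or cofactor list and comparison, and the 3 genes most like each member. Members and lists were chosen with earlier results of these data known. Replicates differed by more than sampling error (chi-square over its degrees of freedom, 2.51 to 95.1), so none was counted as a duplicate. Libraries were treated as unpaired. Deviations of same-numbered libraries correlated between -0.395 and 0.442. Differently numbered libraries were not set beside them, so this cannot decide whether replicate numbers pair libraries. Alternatives were the pseudocount, the filter, quantile normalization, scaling by total reads, voom on the reads, a replicate block, fits of 2 groups, and leaving libraries out. Promoter windows and motif counts used Python 3.11.15 with pandas 2.3.3.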

Additional observations from a re-analysis of the deposited data

How the results depend on the processing

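Over 54 differences of members, 37 kept their direction where called and their side of the threshold under every alternative tried, and 17 did not. Of 819 alternative values 774 had the reported call, 35 lost it, 10 gained one and 0 reversed. A change of sign counted as a reversal only where the difference was called. Differences that were not called did change sign, such as Six3 between A-iSCs and P56-NSC, at -0.26 as reported and 0.19 under total reads. The number of members called between A-iSCs and P56-NSC, 8 as reported, was 5 when libraries were scaled by total reads, and it ranged from 5 to 8 when a replicate was left out in turn, with 5 left without P56-NSC replicate 1. In that comparison the Emx1 and Nkx2-1 calls were lost most often, in 10 and 7 of 15 alternatives, and Emx2 was lost under total reads (limma adjusted p = 0.0933). With the replicate block, the Emx1 difference between A-iSCs and P56-NSC was -0.40 with a limma adjusted p of 0.0548; it changed no other call of a member. Without A-iSCs replicate 3 Pax6 was called lower in A-iSCs than in P0-NSC (limma adjusted p = 0.0328). The cause of these changes was not tested. AST replicate 2 and A-iSCs replicates 1 and 2 deviated from their groups towards short genes (Spearman -0.45 to -0.233 between deviation and gene length), and AST replicates 1 and 3 and A-iSCs replicate 3 towards long ones (0.328 to 0.385). Within the latter 3 Emx2 lost its call and Pax6 gained one (limma adjusted p = 0.0376). At this depth 1 read of a gene of 1 kilobase was worth 0.0343 to 0.0623 FPKM, which limits En1 in P0-NSC, with 7 reads in all.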

Other observations

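The deposited annotation assigned 229 named genes to a homeobox family, and 62 of them were tested. In A-iSCs against AST 24 were higher and 20 lower, where 28.1% and 30.8% of all genes were, with a median difference of -0.04 on the log2 scale; for P56-NSC these were 26 and 20 (0.20), beside 37.1% and 37.0% of all genes, and for P0-NSC 31 and 23 (0.24), beside 35.9% and 38.3%. In A-iSCs against P0-NSC 25 were higher and 23 lower (-0.10), beside 32.6% and 34.7%.

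Among the 9 members themselves, across 12 libraries that share 4 conditions, Pearson's r of log2(FPKM + 1) was 0.944 between Emx1 and Emx2, 0.84 between Otx1 and Pax6 and 0.839 between Nkx2-1 and En1. Six3 had r = -0.958 with Emx1 and 0.812 with Nkx2-1. The paralogs Otx1 and Otx2 had r = -0.197. These values describe the group levels, and no test was made.

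In P56-NSC 15 of 28 posterior hindbrain and spinal cord genes were listed at 0 in all 3 libraries, in P0-NSC 24, in AST 5 and in A-iSCs 7.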
